A study of Mus musculus with 13 samples.

Results

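The mitochondrial genome of the mouse carries 13 protein-coding genes, and all 13 had a row on chromosome MT in the table of log2 CPM (reads of a gene per 1e6 mapped reads, on the log2 scale), which held 25965 genes. They were chosen by that chromosome name alone. The annotation of the same genome build, GENCODE M21, lists 37 genes on MT, and its 2 rRNA and 22 tRNA genes were not analysed here. The coordinates of the 13 rows were identical to those in the annotation. RNA-seq was performed on 13 libraries of female mESCs (mouse embryonic stem cells) derived from FVB/NJ dams crossed to CAST/EiJ sires, expanded in 2i medium and differentiated by weaning into serum medium (DME HiHi). The Day0 library came from cells without a hairpin before differentiation. The other 12 libraries came from cells that received an shRNA by retroviral transduction on day 2 and were selected with puromycin from day 3. On each of days 4, 5, 6 and 7 there was 1 library with a nonsilencing hairpin (Nons), 1 with the hairpin Smarcc1.6 and 1 with the hairpin Smarcc1.7, both of these hairpins directed against Smarcc1, a core subunit of the BAF chromatin remodelling complex. Controls and knockdowns therefore share the transduction, the selection and the hybrid genotype, and each group was replicated over 4 days. Nothing in the labels says whether the days came from separate cultures, so p-values measure only the spread between these libraries.

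Mitochondrial DNA is transcribed from both strands into long precursor RNAs, which are cut at the tRNAs that lie between the coding genes. Each of the 13 proteins is a subunit of the respiratory chain or of the ATP synthase, built together with nuclear-encoded partners and translated on ribosomes inside the organelle. The mitochondrial genome is inherited through the mother, so these cells carry the FVB/NJ version. Pluripotent cells rely strongly on glycolysis, and mitochondria are remodelled as the cells differentiate.

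The 13 genes comprise 7 subunits of complex I (mt-Nd1, mt-Nd2, mt-Nd3, mt-Nd4l, mt-Nd4, mt-Nd5 and mt-Nd6), 1 of complex III (mt-Cytb), 3 of complex IV (mt-Co1, mt-Co2 and mt-Co3) and 2 of the ATP synthase (mt-Atp8 and mt-Atp6). On the plus strand lie 12 of them, and mt-Nd6 lies on the minus strand. Neighbours overlap by 43 bases (mt-Atp8 and mt-Atp6), 1 base (mt-Atp6 and mt-Co3), 7 bases (mt-Nd4l and mt-Nd4) and 14 bases (mt-Nd5 and mt-Nd6, on opposite strands), so reads in the overlaps cannot be assigned to 1 gene with certainty. Whether reads were counted by strand is not given in the sources used here.

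Much of this genome also exists as a copy in the nucleus. On mm10, 7 annotated pseudogenes lie side by side on the minus strand at chr1:24611535-24616197, a stretch of 4663 bases, in the same order as the mitochondrial genes they match. They begin within mt-Co1 at its base 1063 and end within mt-Nd4. Distances were taken between the annotated copies on chromosome 1 and between the aligned stretches on MT. They were equal for 5 of 6 neighbours, for example 233 bases between the stretches of mt-Co2 and mt-Atp6. They differed by 1 base between those of mt-Nd3 and mt-Nd4l (73 bases on MT, 74 on chromosome 1). mt-Atp8 begins between the stretches of mt-Co2 and mt-Atp6 and runs into mt-Atp6, with which it shares its last 43 bases. It has no annotated copy of its own. Of the 7 pseudogenes, only Gm10222, the copy of mt-Nd4l, had a row in the table. It was picked out after its values were seen.

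How close the copies are is seen in the sequences themselves, taken from the GENCODE M21 transcripts on mm10 (reference strain, not FVB/NJ) and shown 5′ to 3′. The whole mt-Nd4l gene (MT, plus strand, 9877 to 10173, 297 bases) is identical to Gm10222 (chr1:24612407-24612700, minus strand) over 294 bases. The row of Gm10222 in the table of log2 CPM had the coordinates chr1:24612404-24612700, so it reached past the end of this annotated copy. The capitals mark the 3 bases after the end of the annotated copy.
mt-Nd4l: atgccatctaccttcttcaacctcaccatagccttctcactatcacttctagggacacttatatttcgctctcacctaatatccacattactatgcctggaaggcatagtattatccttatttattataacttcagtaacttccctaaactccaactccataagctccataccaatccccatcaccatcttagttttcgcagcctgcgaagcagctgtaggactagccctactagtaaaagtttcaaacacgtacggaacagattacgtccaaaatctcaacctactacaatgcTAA

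The start of mt-Nd3 (MT, plus strand, 9459 to 9533) and of its copy Gm28438 (chr1:24613045-24613119, minus strand) is shown because it holds the only difference between them in 345 aligned bases, T3C, in capitals (position counted from 1 at the start of the gene).
mt-Nd3: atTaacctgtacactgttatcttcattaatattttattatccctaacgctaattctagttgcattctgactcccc
Gm28438: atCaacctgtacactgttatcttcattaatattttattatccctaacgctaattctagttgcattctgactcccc

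In mt-Co1 (MT, plus strand, 6352 to 6426), the capitals mark where the copy Gm29216 begins to align, so that a read to the left of them has no partner in that copy, whereas a read to the right of them has one, with a single mismatch in the aligned stretch.
mt-Co1: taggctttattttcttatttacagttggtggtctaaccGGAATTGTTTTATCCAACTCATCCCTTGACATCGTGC

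mt-Cytb lies outside the copied stretch and is shown for contrast. Its closest annotated relative is the processed pseudogene Gm11410 on chromosome 4 (chr4:80003989-80005131, plus strand), with 81 mismatches in 1142 aligned bases, and 6 of them, in capitals, fall in these 75 bases from the middle of the alignment (MT, plus strand, 14680 to 14754).
mt-Cytb: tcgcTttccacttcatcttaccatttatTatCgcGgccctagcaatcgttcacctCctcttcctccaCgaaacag
Gm11410: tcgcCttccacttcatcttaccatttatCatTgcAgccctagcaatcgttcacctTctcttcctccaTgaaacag

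Reads were 75 bases long, so each gene was cut into all its windows of 75 bases, and the windows found exactly in an annotated nuclear transcript were counted. The share was 99.5% for mt-Co2, 99.5% for mt-Atp6, 99.9% for mt-Co3, 97.8% for mt-Nd3 and 98.7% for mt-Nd4l. It was 61.5% for mt-Nd4, of which the first 876 bases are in the chromosome 1 copy, and 39.8% for mt-Co1. The whole length of mt-Co1 also aligned to another annotated pseudogene, Gm13340, with 37 mismatches in 1545 bases, and 82.5% of its windows had a nuclear match within 2 mismatches. It was 5.71% for mt-Nd2, 1.66% for mt-Nd5 and 0% for mt-Nd1, mt-Atp8, mt-Nd6 and mt-Cytb. A window is not a read pair, since the other mate can reach into sequence without a copy.

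The 13 genes fell into 7 abundant genes and 6 scarce ones, and the scarce ones were the 6 that lie next to each other between mt-Co1 and mt-Nd4. Over the 12 libraries of days 4 to 7, the mean log2 CPM was 11.89 for mt-Co1, 10.30 for mt-Nd1, 10.05 for mt-Cytb, 9.63 for mt-Nd5, 9.27 for mt-Nd2, 8.56 for mt-Nd4 and 7.94 for mt-Nd6. It was 1.16 for mt-Atp6, 0.90 for mt-Co2, 0.80 for mt-Co3, 0.42 for mt-Atp8, -1.63 for mt-Nd4l and -2.60 for mt-Nd3. The median number of reads over the 13 libraries ran from 10215 (mt-Nd6) to 140509 (mt-Co1) among the abundant genes and from 5 (mt-Nd3) to 182 (mt-Co2) among the scarce ones. Of the 6 scarce genes, 5 had an exact nuclear match for at least 97.8% of their windows, and mt-Atp8 was scarce with none annotated. The search covered annotated transcripts only, so it did not reach the interval between the copies of mt-Co2 and mt-Atp6. That interval, in which mt-Atp8 begins, has 233 bases on both MT and chromosome 1, and whether it holds a copy of mt-Atp8 was not tested. How the authors' counting treated reads with several equally good positions is not given in the sources used here, and its part in the low values was not tested.

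**Figure D1:**
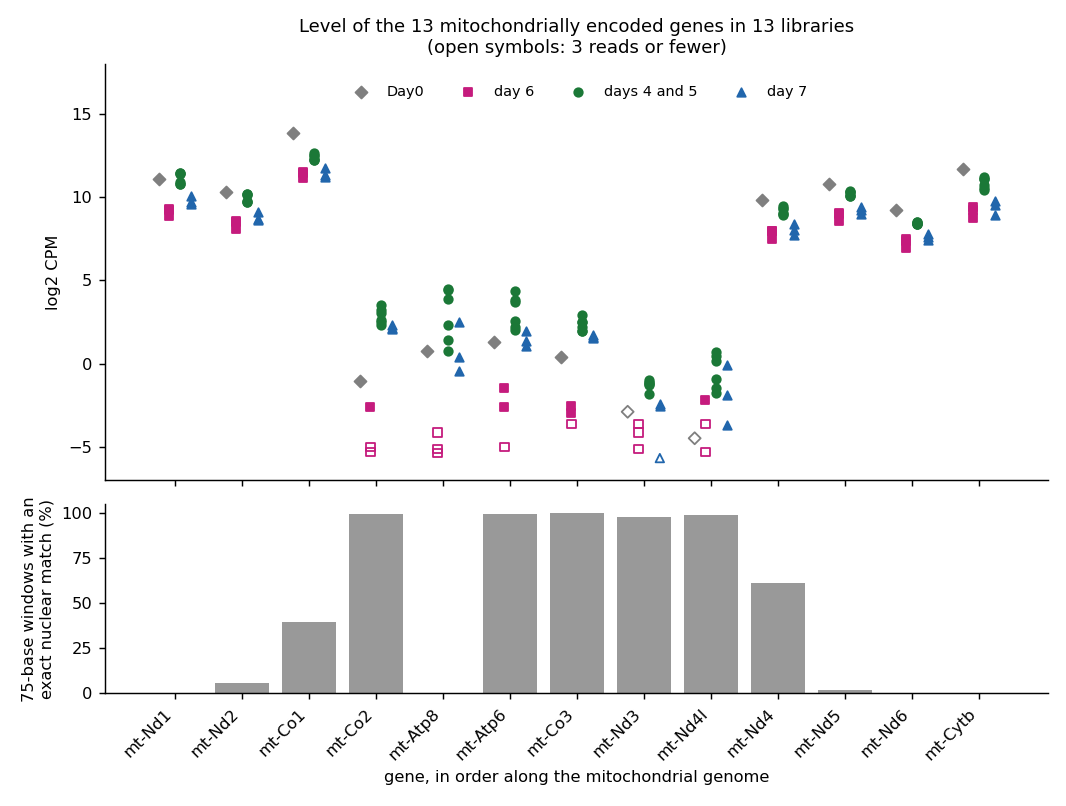
The upper panel gives the log2 CPM of each gene in every library, in order along the mitochondrial genome, with open symbols for 3 reads or fewer, and the lower panel gives the share of 75-base windows of each gene found exactly in an annotated nuclear transcript. The 6 genes from mt-Co2 to mt-Nd4l sit far below their neighbours on both sides, and 5 of them have bars of at least 97.8%.

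To compare levels between genes, CPM was divided by gene length in kb. The median over the 13 libraries was 3060 CPM per kb for mt-Co1, the catalytic core of cytochrome c oxidase, 1860 for mt-Nd1, 1220 for mt-Cytb, the core of complex III, 797 for mt-Nd2, 631 for mt-Nd6, 584 for mt-Nd5 and 348 for mt-Nd4. This order by full gene length held between most neighbours in every library. mt-Nd1 was above mt-Cytb in 12 of 13 libraries, Day0 being the exception, and mt-Nd6 was above mt-Nd5 in 10 of 13, so mt-Nd6 and mt-Nd5 were not separated by the spread between libraries. Full length includes windows with an exact nuclear match, 61.5% of those of mt-Nd4 and 39.8% of those of mt-Co1. Per kb of unmatched window starts, the median CPM was 956 for mt-Nd4, 910 for mt-Nd2, 737 for mt-Nd6 and 622 for mt-Nd5. The place of mt-Nd4 in the order therefore depended on the length used. Of the abundant genes, mt-Co1, mt-Nd1 and mt-Cytb stayed highest, at 5340, 2020 and 1300. On that scale the scarce genes mt-Co3, mt-Co2 and mt-Atp6 had 3240, 1690 and 1300, from 1, 3 and 3 window starts. mt-Nd4l, mt-Nd3 and mt-Atp8 had 99.0, 31.3 and 13.2, from 3, 6 and 130. The distance between scarce and abundant genes therefore also depended on the length used. The few window starts of all but mt-Atp8 give no secure level. Among the scarce genes the median over full length ran from 0.539 CPM per kb (mt-Nd3) to 8.41 (mt-Atp8).

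The libraries differ in a way that bears on these genes. Reads counted in genes were 85.3% to 86.5% of all mapped reads in 4 libraries, those of Day0 and day 6, and 91.6% to 92.6% in the remaining 9. Processed pseudogenes took 1.31% to 1.48% of reads in those 4 and 0.301% to 0.405% in the remaining 9. The part of this division in the mitochondrial values was not tested. Depth ran from 13993440 to 63548092 mapped reads, so 3 reads correspond to a log2 CPM between -2.22 and -4.40. The pluripotency factors Pou5f1 and Nanog were at a log2 CPM of 10.24 and 10.47 in Day0, so both defining markers of mESCs were present. Smarcc1 was lower than in same-day Nons in 8 of 8 comparisons, by 0.38 to 1.68 on the log2 scale, with 1 Nons library per day for both hairpins.

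The make-up of the mitochondrial reads followed the same division. The 6 scarce genes together held 13 to 136 reads in Day0 and day 6, which is 0.0100% to 0.0250% of the reads of the 13 genes, and 224 to 3307 reads in the other 9 libraries, 0.146% to 0.414%. mt-Co2 had 11 reads in Day0 and 0, 6 and 1 on day 6 (Nons, Smarcc1.6 and Smarcc1.7), against 71 to 599 elsewhere. mt-Atp8 had 38 reads in Day0 and 2, 0 and 0 on day 6, against 24 to 1390. The ranges of both genes did not overlap between day 6 and the days around it, and the share of all genes that separate in this way was not counted.

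mt-Co3 had 29 reads in Day0 and 6, 3 and 4 on day 6, against 63 to 360 elsewhere. mt-Atp6 had 54 reads in Day0 and 13, 6 and 1 on day 6, against 57 to 905. For mt-Nd3 the counts were 0 to 3 in Day0 and day 6 and 1 to 28 elsewhere, and for mt-Nd4l they were 0 to 7 and 4 to 71. Both were near the limit of counting in many libraries. A library with 0 reads was listed at the value of 0.9 reads, and a count of 0 allows up to 3 reads. Gm10222, the 1 copy with a row, had 4 to 13 reads in Day0 and day 6 and 4 to 163 in the other 9, with 163 in Smarcc1.6 on day 7 and at most 59 in any other library.

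The abundant genes also shared the mitochondrial reads differently. mt-Co1 took 51.6% to 59.2% of them in Day0 and day 6 and 40.0% to 49.2% in the other libraries. mt-Nd1 took 8.80% to 11.6% and 14.5% to 19.8%, and mt-Nd2 took 5.22% to 7.07% and 7.56% to 8.11%. The ranges of these 3 genes did not overlap between the 2 sets of libraries. How many of all genes also separate the 2 sets was not counted, so whether the separation is particular to these genes is not known. For mt-Nd4, mt-Nd5, mt-Nd6 and mt-Cytb the ranges overlapped. Comparisons of a hairpin with Nons were made within a day and so within a set, whereas day 6 can be set only against Day0, and days 4, 5 and 7 against each other, without crossing between sets.

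To ask how mitochondrial transcripts changed during differentiation, their levels were followed by day. The reads of the 13 genes made up 2.44% of mapped reads in Day0. In Nons they made up 1.5%, 1.11%, 0.538% and 0.717% on days 4, 5, 6 and 7. The share with Smarcc1.6 was 1.39%, 1.10%, 0.542% and 0.534%. Smarcc1.7 libraries had shares of 1.44%, 1.09%, 0.407% and 0.524%. All 3 groups fell from day 4 to day 5 and from day 5 to day 7, and the lowest value was on day 6 in Nons and Smarcc1.7 and on day 7 in Smarcc1.6. On the log2 scale, day 7 was below day 4 by 1.07 to 1.45, a mean of -1.30 ± 0.21 (SD, n = 3 groups), which leaves 40.6% of the day 4 share. In these bulk libraries, fewer cells of a type and less RNA per cell cannot be told apart.

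**Figure D2:**
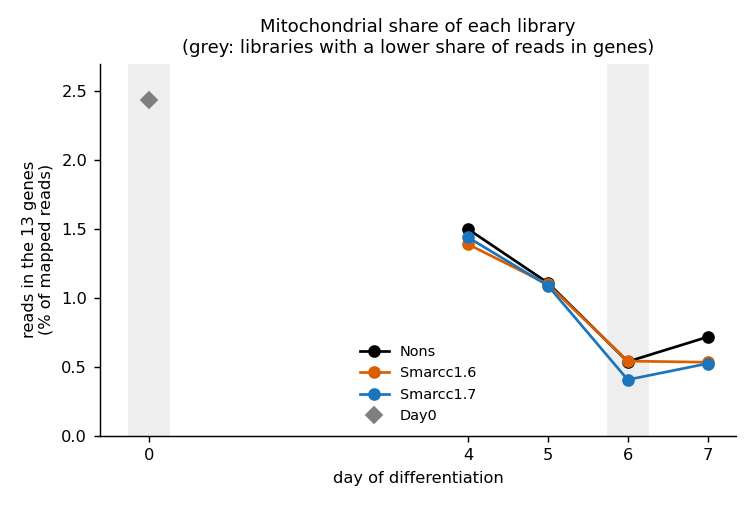
The percentage of mapped reads in the 13 genes is plotted against the day for each group, with grey bands over Day0 and day 6, the libraries in which fewer reads were counted in genes. The share goes from 2.44% in Day0 to between 0.524% and 0.717% on day 7.

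In the fit of the change per day with group as a covariate, 7 of the 11 mitochondrial genes that passed the filter on low values (a mean log2 CPM of at least 0) had a limma adjusted p under 0.05, all 7 lower with time. They were the 7 abundant genes. This fit took the 12 libraries as independent although they come from 4 days, so its SEs and adjusted p-values may be too small. It also includes day 6, which crosses between the 2 sets of libraries. Over all 13406 tested genes 25.6% were called lower and 34.9% higher. The median change of the 11 genes was -0.66 per day, against 0.04 for all genes tested. The 2 genes that did not pass the filter were mt-Nd3 and mt-Nd4l.

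mt-Cytb was at a log2 CPM of 11.66 in Day0. It was 11.22, 10.71, 9.39 and 9.75 in Nons on days 4, 5, 6 and 7, 11.10, 10.52, 9.25 and 9.50 with Smarcc1.6, and 11.11, 10.44, 8.73 and 8.91 with Smarcc1.7. Every library of days 6 and 7 was below every library of days 4 and 5. The share of all genes that separate in this way was not counted. mt-Cytb changed by -0.67 ± 0.11 (SE) per day with a limma adjusted p of 0.000366.

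mt-Nd1, a membrane subunit of complex I, was at 11.07 in Day0. It was 11.41, 10.81, 9.22 and 10.09 in Nons, 11.43, 10.90, 9.29 and 9.73 with Smarcc1.6, and 11.44, 10.80, 8.86 and 9.57 with Smarcc1.7 on days 4 to 7. The groups were close on days 4 and 5, and day 7 was above day 6 in all 3. The change was -0.66 ± 0.15 (SE) per day with a limma adjusted p of 0.00263. mt-Nd1 was the only abundant gene that was higher on day 4 than in Day0, by 0.35 to 0.38, and this comparison crosses between the 2 sets of libraries.

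mt-Co1 was at 13.82 in Day0. It was 12.62, 12.21, 11.44 and 11.73 in Nons, 12.44, 12.25, 11.50 and 11.23 with Smarcc1.6, and 12.52, 12.29, 11.12 and 11.33 with Smarcc1.7. All 12 libraries lay below Day0, with the widest step on day 4 of any abundant gene, -1.29 ± 0.09 (SD, n = 3), again between sets. The change per day was -0.42 ± 0.08 (SE) with a limma adjusted p of 0.00111.

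The other complex I genes of high abundance fell by similar amounts. mt-Nd2 was at 10.31 in Day0, between 10.11 and 10.19 on day 4, and at 9.09, 8.69 and 8.64 on day 7 in Nons, Smarcc1.6 and Smarcc1.7, and changed by -0.54 ± 0.11 (SE) per day. mt-Nd4 was at 9.81 in Day0, between 9.31 and 9.45 on day 4, and at 8.39, 8.01 and 7.75 on day 7, and changed by -0.51 ± 0.09 (SE) per day. No library of day 7 reached the level of any library of day 4 for either gene. How many of all genes separate these days was not counted.

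mt-Nd5 was at 10.81 in Day0, between 10.30 and 10.39 on day 4, and at 9.43, 9.01 and 9.24 on day 7, with a change of -0.45 ± 0.10 (SE) per day. mt-Nd6, the gene of the minus strand, was at 9.22 in Day0. It was 8.53, 8.36, 7.48 and 7.79 in Nons, 8.41, 8.40, 7.36 and 7.45 with Smarcc1.6, and 8.46, 8.48, 6.97 and 7.59 with Smarcc1.7. Its day 4 and day 5 values overlapped, and its change was the smallest estimate among the 7, -0.37 ± 0.09 (SE) per day. The limma adjusted p of mt-Nd2, mt-Nd4, mt-Nd5 and mt-Nd6 was 0.00152, 0.000570, 0.00240 and 0.00503.

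**Figure D3:**
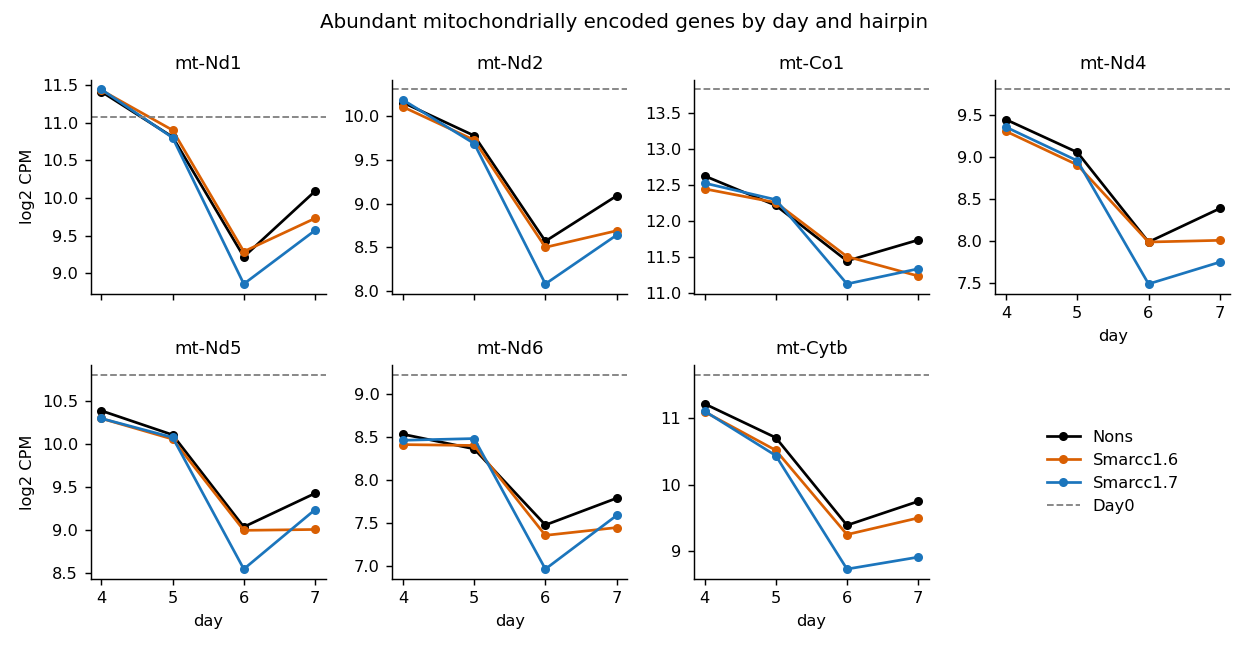
Each panel gives the log2 CPM of 1 abundant gene against the day for Nons, Smarcc1.6 and Smarcc1.7, with the Day0 value as a dashed line and a separate vertical scale per panel. All 7 genes are lower on day 7 than on day 4, the day 6 value lies below day 5 in every group, and only mt-Nd1 starts above its Day0 line.

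Within the 9 libraries of days 4, 5 and 7, all 7 abundant genes were lower on day 7 than on day 4 in all 3 groups. The mean difference ran from -0.86 ± 0.11 (SD, n = 3) for mt-Nd6 to -1.76 ± 0.39 (SD, n = 3) for mt-Cytb. Between Day0 and day 6, the other pair within 1 set, all 7 were lower as well, with mean differences from -1.93 ± 0.27 (mt-Nd2) to -2.54 ± 0.35 (mt-Cytb, SD, n = 3). Day0 is 1 library, so that difference has no test. The calls depended on the days in the fit. Without day 4 only 3 of the 11 genes were called in limma, mt-Co1, mt-Nd4 and mt-Cytb, whereas mt-Nd1, mt-Nd2, mt-Nd5 and mt-Nd6 had changes of -0.52, -0.46, -0.43 and -0.40 per day with adjusted p-values of 0.137, 0.0868, 0.0865 and 0.086. Without day 7 all 11 were called, with wider changes, for example -1.15 for mt-Nd1 and -1.01 for mt-Cytb. Without day 6 all 11 genes were called lower per day in limma, where 27.3% of all genes were lower and 35.1% higher. The adjusted p of the 7 abundant genes then ran up to 0.00045 and that of the 4 scarce ones up to 0.0268.

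The 4 scarce genes that passed the filter were not called over the 4 days, with changes per day of -1.0 ± 0.79 (mt-Co2), -1.66 ± 0.78 (mt-Atp8), -1.28 ± 0.62 (mt-Atp6) and -0.76 ± 0.58 (mt-Co3, SE) and limma adjusted p-values from 0.0875 to 0.296. Without day 6 the changes were -0.33 ± 0.08, -1.03 ± 0.29, -0.78 ± 0.15 and -0.26 ± 0.09 (SE). Without day 4 they were -0.15, -0.34, -0.41 and -0.37, and without day 7 they were -3.78, -4.56, -3.49 and -2.69. mt-Atp8 was also called without the Nons library of day 7 (-2.35 per day, limma adjusted p of 0.0249). mt-Atp8 was at 3.85, 4.45 and 4.42 on day 4, at 1.43, 2.29 and 0.78 on day 5, and at 2.52, 0.39 and -0.46 on day 7 in Nons, Smarcc1.6 and Smarcc1.7. Its day 5 and day 7 values overlapped, and day 4 stood above both, a pattern that was not counted over all genes.

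mt-Co2 ranged from 3.04 to 3.50 on day 4, from 2.34 to 2.59 on day 5 and from 2.07 to 2.34 on day 7. mt-Atp6, the proton channel subunit of the ATP synthase, ranged from 3.68 to 4.38 on day 4 and from 1.05 to 1.97 on day 7. mt-Co3 ranged from 1.97 to 2.52 on day 4 and from 1.54 to 1.69 on day 7. For each of these 3 genes every library of day 4 lay above every library of day 7. A count of such genes over the whole table was not made.

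**Figure D4:**
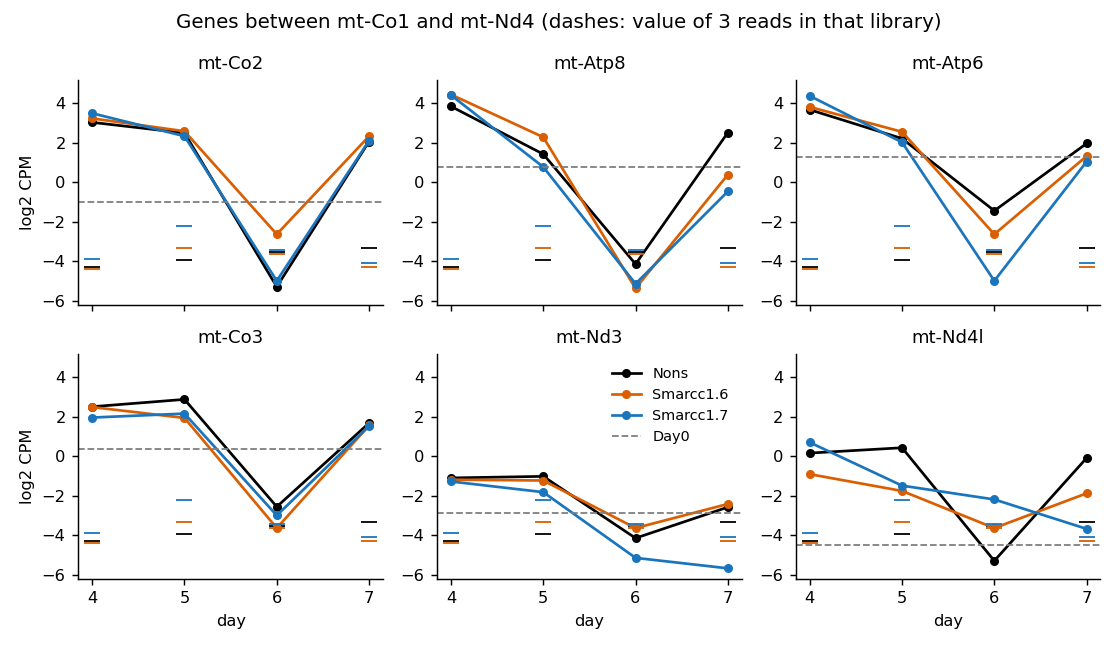
Each panel gives the log2 CPM of 1 of the 6 scarce genes against the day for Nons, Smarcc1.6 and Smarcc1.7, with the Day0 value as a dashed grey line and short dashes at the value of 3 reads in each library. On day 6 most points lie on or below the dashes, whereas on days 4 and 5 every point lies above them.

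When each gene was taken relative to all mitochondrial reads of its library, none of the 11 was called per day in limma (0 genes, and 7 on the scale of mapped reads), and mt-Co1, mt-Nd5 and mt-Nd6 had changes of 0.09, 0.05 and 0.13 per day instead of falls. That scale moves the median of all genes to 0.545 per day and shows only unequal change among the mitochondrial genes.

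Cell type markers moved over the same days. Of 6 mESC markers (Pou5f1, Nanog, Sox2, Zfp42, Esrrb and Klf4), 4 were called lower per day, and their summed level was 4280 CPM in Day0, 1500 to 2520 CPM on day 4 and 1080 to 1350 CPM on day 7. The 3 markers of mesoderm and smooth muscle (T, Acta2 and Tagln) were all called higher, from 3.31 to 3.48 CPM on day 4 to between 1060 and 1130 CPM on day 7. Of 3 markers each of fibroblasts and endoderm, 2 of each were called higher and 1 of the fibroblast markers lower, and of the 3 cardiac markers only 1 passed the filter and it was not called. No marker was at 0 in any library. Their part in the change of the mitochondrial genes was not tested.

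To ask whether Smarcc1 depletion altered mitochondrial transcripts, knockdown was compared with Nons within days. None of the 11 tested genes was called in limma (0 genes, with 4 at an unadjusted p under 0.05), where 11.6% of all genes were called in either direction, 6.88% higher and 4.77% lower. Of the 11 estimates 10 were negative, against 52.9% of all genes, and their median was -0.20, against -0.01 for all genes. The estimates lean the same way, but these genes share precursor RNAs and libraries and are not independent of each other.

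The total share of mitochondrial reads differed from same-day Nons by -0.13 ± 0.20 on the log2 scale (SD, n = 4 days) with Smarcc1.6 and by -0.23 ± 0.23 (SD, n = 4 days) with Smarcc1.7, and was lower in 3 and 4 of the 4 days. By day, the share was 92.6%, 99.4%, 101.0% and 74.5% of that in Nons with Smarcc1.6, and 95.6%, 98.8%, 75.6% and 73.1% with Smarcc1.7. Both hairpins were close to Nons on days 4 and 5 and both were lower on day 7, whereas on day 6 only Smarcc1.7 was lower. Over both hairpins the mean difference was -0.18, and it was -0.099 without the Nons library of day 7.

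mt-Cytb had the lowest adjusted p. It was below same-day Nons in 8 of 8 comparisons, by 0.12, 0.20, 0.14 and 0.25 with Smarcc1.6 and by 0.11, 0.27, 0.66 and 0.84 with Smarcc1.7 on days 4, 5, 6 and 7. The difference between knockdown and Nons was -0.32 ± 0.12 (SE, 95% interval -0.58 to -0.067) with a limma adjusted p of 0.094. mt-Nd4 was lower in 7 of 8, with a difference of -0.25 ± 0.09 (SE, interval -0.46 to -0.044) and an adjusted p of 0.105. Neither passed the threshold. Both hairpins of a day were set against the same Nons library, so the 8 comparisons of a gene are not independent. The share of all genes lower in 8 of 8 was not counted.

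mt-Nd5 was below Nons in 8 of 8 comparisons, with a difference of -0.18 ± 0.08 (SE, interval -0.36 to 0.0032) and an adjusted p of 0.186 in limma. For mt-Nd2, mt-Co1, mt-Nd6 and mt-Nd1 the differences were -0.20, -0.17, -0.15 and -0.13, lower in 7, 5, 6 and 4 of 8 comparisons, with adjusted p-values from 0.144 to 0.392. Without the Nons library of day 7 the differences of mt-Nd1, mt-Co1, mt-Nd2 and mt-Nd4 were -0.028, -0.07, -0.12 and -0.16. That of mt-Nd6 was -0.23 without the Nons library of day 5 and -0.097 without that of day 6. The intervals of the 7 abundant genes reached no lower than -0.58, so a mean fall wider than that lies outside them.

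Among the scarce genes, mt-Co3 was below Nons in 8 of 8 comparisons, with a difference of -0.50 ± 0.20 (SE) and a limma adjusted p of 0.127. mt-Co2 had the only positive estimate, 0.48 ± 0.38 (SE), with a difference of 2.66 on day 6, where Nons had 0 reads and Smarcc1.6 had 6. mt-Atp8 and mt-Atp6 differed by -0.75 ± 0.45 and -0.67 ± 0.47 (SE), with adjusted p-values of 0.31 and 0.384. These 3 estimates moved by over 1.5 times when a single library was left out. That of mt-Co2 was 0.15 without the Nons library of day 6 and 0.18 without the Smarcc1.6 library of day 6. That of mt-Atp8 was -0.14 without the Nons library of day 7 and -1.19 without that of day 4. That of mt-Atp6 was -0.098 without the Nons library of day 6, -0.32 without the Smarcc1.7 library of day 6 and -1.03 without the Nons library of day 4. Their same-day differences spread from -2.98 to 0.86 and from -3.55 to 0.70. mt-Nd3 and mt-Nd4l were tested only without the filter, with differences of -0.59 ± 0.58 and -0.66 ± 0.68 (SE).

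**Figure D5:**
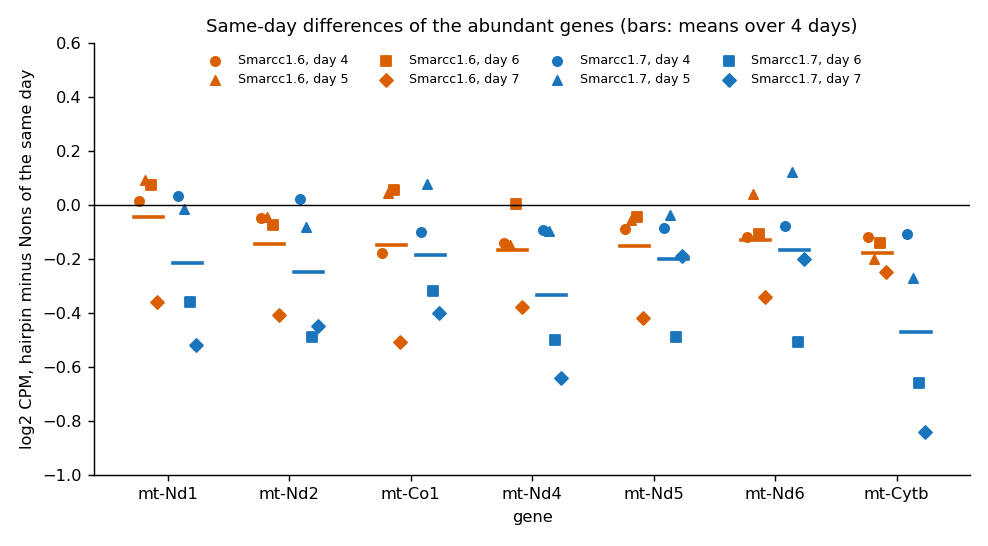
For the 7 abundant genes, each symbol is the log2 CPM with a hairpin minus that of Nons on the same day, orange for Smarcc1.6 and blue for Smarcc1.7, and bars are means over the 4 days. Symbols of days 4 and 5 lie between -0.27 and 0.12, and those of day 7 all lie below 0.

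By hairpin, none of the 11 genes was called with Smarcc1.6 (0 genes, with 1 at an unadjusted p under 0.05, and 9.3% of all genes called) or with Smarcc1.7 (0 genes, with 3 unadjusted, and 2.45% of all genes called) in limma. The median estimate was -0.15 and -0.25, and the 2 comparisons share the Nons libraries. On day 7 all 7 abundant genes were below Nons with both hairpins, from -0.51 to -0.25 with Smarcc1.6 and from -0.84 to -0.19 with Smarcc1.7. On day 6 they ran from -0.14 to 0.07 with Smarcc1.6 and from -0.66 to -0.32 with Smarcc1.7. The 7 values of a hairpin on a day come from the same library and are not replicates of each other. With 1 library for each hairpin and day, differences on 1 day have no replicate.

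With Smarcc1.7, mt-Cytb differed from Nons by -0.47 ± 0.11 (SE, interval -0.72 to -0.22) with a limma adjusted p of 0.0541, and mt-Nd4 by -0.33 ± 0.10 (SE) with an adjusted p of 0.104. mt-Cytb passed the threshold without the libraries of day 4 (adjusted p of 0.0225), without the day 4 Nons library (0.0225) and without the filter (0.0333). The 2 hairpins differed from each other in none of the 11 genes (0 genes, with 1 at an unadjusted p under 0.05), and in 0% of all genes. That gene was mt-Cytb, higher with Smarcc1.6 by 0.29 ± 0.11 (SE, interval 0.044 to 0.54, adjusted p of 0.989 in limma).

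Whether the difference between knockdown and Nons changed with the day was fitted as an interaction. None of the 11 genes was called in limma (0 genes, with 0 at an unadjusted p under 0.05), nor was any gene of the table (0%). The estimates for the 7 abundant genes ran from -0.16 to -0.09 per day, with SEs from 0.18 to 0.32. All 7 were negative, and 9 of the 11, against 47.8% of all genes. Each estimate was smaller than its SE, and these genes are not independent of each other.

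Markers also differed between knockdown and Nons. Of the 6 mESC markers 4 were higher in knockdown (Sox2, Zfp42, Esrrb and Klf4, by 0.69 to 1.40), of the 3 fibroblast markers 2 were higher (Col1a2 by 2.82 and Thy1 by 0.83), and T and Sox17 were lower by 2.50 and 0.88 in log2 CPM. The summed mESC markers ranged from 1080 to 1730 CPM in Nons and from 1080 to 2520 CPM in knockdown, the fibroblast markers from 7.69 to 85.3 CPM and from 18.9 to 185 CPM, those of mesoderm and smooth muscle from 3.47 to 1080 CPM and from 3.31 to 1130 CPM, those of endoderm from 4.05 to 19.9 CPM and from 3.07 to 10.2 CPM, and the cardiac markers from 3.71 to 7.26 CPM and from 4.65 to 9.05 CPM. Their part in the mitochondrial differences was not tested.

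Expression of the 13 genes depends on nuclear-encoded factors, and 51 of them, listed by role, had a row, of which 50 were tested. For knockdown none was called in limma (0 of 50, 8 at an unadjusted p under 0.05, with a median of -0.03, where 11.6% of all genes were called). Polrmt, the mitochondrial RNA polymerase, differed by -0.10 ± 0.08 (SE), Tfam, which packages mitochondrial DNA and activates its promoters, by -0.03 ± 0.07, and Tfb2m, which opens the promoter, by -0.015 ± 0.14. Lrpprc, which stabilises mitochondrial mRNAs, differed by 0.08 ± 0.06, and Mterf4 (Mterfd2 in the table), which acts in ribosome assembly, by -0.05 ± 0.07. The replication factors Polg (DNA polymerase gamma) and Twnk (the helicase, Peo1 in the table) differed by -0.13 ± 0.08 and -0.16 ± 0.07, and the regulator Nrf1 by -0.026 ± 0.05. Their adjusted p-values ran from 0.137 to 0.959. The coactivator Ppargc1a had 0 to 3 reads in the 12 libraries and was not tested.

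With time, 7 of the 50 factors were called higher and 17 lower, with a median of -0.08 per day, where 34.9% of all genes were higher and 25.6% lower. Without day 6 the counts were 6 and 20, where 35.1% of all genes were higher and 27.3% lower. Tfb2m changed by -0.43 ± 0.13 (SE) per day and Lrpprc by -0.33 ± 0.06, with limma adjusted p-values of 0.0132 and 0.000467. Nrf1 changed by -0.10 ± 0.04 and Polg by 0.22 ± 0.08, with adjusted p-values of 0.0344 and 0.0239. Tfam and Polrmt, at -0.12 and -0.13 per day, had adjusted p-values of 0.0966 and 0.107, and Mterf4 and Twnk, at 0.10 and -0.08, had 0.0575 and 0.328. The widest changes of the list were in Dguok, a kinase that supplies nucleotides for mitochondrial DNA, which rose by 0.87 per day, and Elac2, which cuts the 3′ ends of mitochondrial tRNAs, which fell by 0.61 per day.

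Mitoribosomal proteins are encoded in the nucleus and translate only the 13 mRNAs. Of 77 of them, 1 was higher (Mrpl15, by 0.28) and 1 lower (Mrps21, by 0.41 in log2 CPM) in knockdown, with a median of -0.01, where 6.88% of all genes were higher and 4.77% lower. With time 10 rose and 32 fell, with a median of -0.09 per day, beside 34.9% and 25.6% of all genes. Without day 6, 16 rose and 34 fell, beside 35.1% and 27.3% of all genes. For knockdown the largest positive estimate was that of Mrps24, 0.29, which did not pass the test (adjusted p of 0.101 in limma). Per day the widest fall was also in Mrps24, -0.48, and the largest positive estimate was 0.69 in the pseudogene Mrps36-ps1, which the symbol pattern took in and which was not called (adjusted p of 0.125 in limma).

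The partners of the 13 proteins in the same complexes are nuclear-encoded, and 75 of them were tested. For knockdown none was called in limma (0 of 75, 6 at an unadjusted p under 0.05, with a median of 0.024, where 11.6% of all genes were called), with estimates from -0.25 (Cox6b1, complex IV) to 0.36 (Ndufb4, complex I). Per day 21 rose and 10 fell, with a median of 0.0037, from -0.67 (Atp5g1, a ring subunit of the ATP synthase) to 0.38 (Cox6b1), where 34.9% of all genes rose and 25.6% fell. Without day 6, 25 rose and 13 fell, beside 35.1% and 27.3% of all genes. Over the same days the 7 abundant mitochondrial genes all fell, by 0.37 to 0.67 per day. The difference between the mitochondrial genes and these lists was not tested.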

How the data were processed

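RNA-seq libraries (TruSeq RNA, paired-end 75 bp reads) were trimmed and aligned by the authors with tophat or hisat2 to mm10 masked at FVB and CAST variants, and reads per gene were counted in Seqmonk. The submitters' processing notes name bcl2fastq and TopHat2 2.0.12. Which library had which aligner, the annotation release and the strand setting are not given in the sources used here. The authors deposited log2 CPM (mapped reads as the total), with 0 reads written as 0.9 reads. All 13 columns were used. Values fell on steps of whole reads (100% of low values within 0.1 of a whole number), from which the reads and the depth were recovered. These floors and counts cover counting error only.

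The 13406 genes whose log2 CPM averaged 0 or more across days 4 to 7 (12 libraries, Day0 left out) were fitted with limma 3.58.1 in R 4.3.3 (lmFit, eBayes with a trend), with Benjamini-Hochberg adjustment over all of them and a threshold of 0.05. Knockdown and hairpin contrasts carried a factor for day. The change per day carried the group as covariate and took libraries of the same day as independent. The interaction term multiplied knockdown by day. Intervals are 95% intervals from the moderated fit. The knockdown and change per day fits were also run on simulated reads. Libraries were drawn independently there, so the effect of libraries sharing a day was not tried. Day0 entered no test. The count models usual for reads were not used, because the deposited unit is log2.

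Nuclear copies and 75-base windows were searched in GENCODE M21 transcripts with Python 3.11.15, and this search was added after the table was seen. Every mitochondrial gene was named. From the factor list the polymerase, transcription, stability, replication and regulator genes set by rule were named (Tefm and Slirp were not matched), and other lists are given by counts, medians and the widest changes. The members and lists were chosen with earlier results of these data known. The alternatives were other scalings, filters, no trend, no day factor, 1 hairpin only, and leaving out each day or library. Counts for the nuclear gene lists without day 6 were chosen after seeing the data.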

Additional observations from a re-analysis of the deposited data

Results flagged for a closer look

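In 42 groups of 4 libraries (the 13 genes and the total mitochondrial share in Nons, Smarcc1.6 and Smarcc1.7), 6 had 1 library whose gap to the nearest other exceeded Dixon's 95% critical value. Independent groups with no change over days would give about 2.1. These groups share libraries and their values are successive days, so the 2 counts cannot be compared as a test. All 6 were day 6 libraries of scarce genes. mt-Co2 stood at a log2 CPM of -5.29 in Nons (0 reads; the other days at 2.07 to 3.04), at -2.63 with Smarcc1.6 (the others at 2.34 to 3.24) and at -4.99 with Smarcc1.7 (the others at 2.11 to 3.50). mt-Co3 stood at -3.63 with Smarcc1.6 (the others at 1.57 to 2.50) and at -2.99 with Smarcc1.7 (the others at 1.54 to 2.17). mt-Nd4l stood at -5.29 in Nons (0 reads, the others at -0.083 to 0.44). The libraries of day 6 also had the lower share of reads counted in genes, 85.3% to 86.5%, and the part of this in the low values was not tested.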

How the results depend on the processing

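No mitochondrial gene was called for knockdown against Nons, Smarcc1.6 against Nons, the 2 hairpins or the interaction under any alternative run for it (0 genes each), including the fit without the day factor and 1 hairpin only. For Smarcc1.7 the count was 1 without the filter and 0 to 1 when a day or library was left out, and the gene was mt-Cytb. The number of all genes called for knockdown, 1561, was 4 without the day factor, 57 with Smarcc1.6 alone and 0 with Smarcc1.7 alone. The mitochondrial count per day was 7, was 0 relative to all mitochondrial reads, and ran from 3 (without day 4) to 11 (without day 6 or day 7). Over all genes the count was 8114, and 10990 on the scale of mitochondrial reads. It was 6679 without day 4, 8371 without day 6 and 8019 without day 7. Relative to all mitochondrial reads the changes per day of mt-Co1, mt-Nd5 and mt-Nd6 turned to 0.088, 0.054 and 0.13, none called. That scale removes the change common to the genes by construction. The causes of the other shifts were not tested. The log2 mitochondrial share per day ran from -0.78 (without day 7) to -0.44 (without day 6), around -0.51, and the knockdown difference from -0.24 to -0.099. The planned ratios of protein-coding to rRNA reads were not run, since no rRNA rows were analysed. Replicates of a group are days, so the day factor is the only pairing, and no other paired analysis was possible because the labels give no replicate numbers. The scarce genes had 0 to 13 reads each on day 6, which limits the precision of their values there. Those libraries held 31802558 to 37246413 mapped reads, and the cause of the low counts was not tested.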
